A study of Drosophila melanogaster with 26 samples.

Results

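In total, 10 antimicrobial and immune genes of *Drosophila melanogaster* were followed across 4 genotypes and 2 oxygen levels, namely *Drs* and its relatives *Drsl2*, *Drsl3*, *Drsl5* and *Drsl6*, the peptide genes *AttD*, *CecB*, *DptB* and *Mtk*, and *PGRP-SB1*. They were chosen by name, with earlier results of these data known, and every probe set annotated to them was taken. Each of the 10 genes has 1 probe set on the array, listed for no other gene, and together they make 10 of the 18769 probe sets and 10 of the 11982 genes measured. The values are intensities of Affymetrix Drosophila Genome 2.0 arrays, on which groups of short probes measure transcripts, and they are given here as log2 intensities.

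The study asked how larvae respond to low oxygen through the hypoxia-inducible factor encoded by *sima* and through the estrogen-related receptor dERR. RNA came from whole larvae of the third instar with partially cleared guts, staged 10 to 4 h before pupariation, that then spent 6 h at 25°C in 4% oxygen (hypoxia) or in normoxia, with at least 10 larvae for each replicate. The genotypes were *dERR sima* double mutants (*Sima07607,dERR1/Sima07607,dERR2*), *dERR* mutants (*dERR1/dERR2*), *sima* mutants (homozygous for the P-element insertion *Sima07607*) and *w1118* controls. Each group had 3 arrays except *w1118* in hypoxia, which had 5, all labelled as biological replicates. All mutants were picked in the second instar as larvae without GFP from stocks balanced over *TM3,tw-GFP*, whereas *w1118* larvae came from *w1118* parents. Genetic background and the sorting therefore cannot be told apart from the mutations. Whole animals were homogenized, so fewer cells of a type and less RNA per cell cannot be told apart either.

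Antimicrobial peptides are small secreted proteins that flies make in the fat body, the counterpart of the liver, and in barrier tissues such as the gut and trachea. The Toll pathway, which ends in the NF-κB proteins Dorsal and Dif, is the main route to *Drs* in the fat body, and the Imd pathway, which ends in the NF-κB protein Relish, is the main route to diptericins, attacins and cecropins, while *Mtk* answers to both. In the gut and trachea the Imd pathway can also turn on *Drs*. Peptidoglycan recognition proteins such as PGRP-SB1 bind bacterial cell wall, and some of them cut it. No infection was part of the design.

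The labels were checked first. The *sima* transcript averaged 5.55 in hypoxia and 5.89 in normoxia in double mutants, and 5.23 and 5.61 in *sima* mutants, against 7.86 and 7.81 in *w1118*, and it was called lower in both mutants at both oxygen levels. *Hph*, a prolyl hydroxylase gene induced through the hypoxia-inducible factor, rose in hypoxia by 2.26 in *dERR* mutants and by 2.93 in *w1118*, while its changes of 0.14 in double mutants and 0.50 in *sima* mutants did not pass. The *ERR* transcript was low in every group, at 4.35 in *dERR* mutants and 5.23 in *w1118* in hypoxia, where it was called lower by 0.89, and it was not called lower in the other mutant comparisons, so it checks that label weakly. Array medians ran between 35.4 and 45.4 intensity units. Within *w1118* in hypoxia, replicates 2 and 3 differed by 0.16 on average over all probe sets and replicates 4 and 5 by 0.25, against 0.35 to 0.45 for the other pairs, and the model counts all 5 as independent. Centring each array on its median would raise the change of every gene by 0.15 for hypoxia against normoxia in *w1118*, and in normoxia by 0.15 for double mutants, 0.10 for *dERR* mutants and 0.15 for *sima* mutants against *w1118*. It would lower the interactions by 0.12 to 0.16.

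Changes come from 1 limma model of the 26 arrays and were called where the difference was 1.5-fold or more and the p value, adjusted by the method of Benjamini and Hochberg over the 18769 probe sets, was under 0.01. In hypoxia, 4 of the 10 genes were called in double mutants against *w1118* (6.05% of all probe sets), 5 in *dERR* mutants (6.16%) and 2 in *sima* mutants (4.56%). The counts in normoxia were 4 for double mutants (0.895% of all probe sets), 3 for *dERR* mutants (2.29%) and 0 for *sima* mutants (1.47%), the last with 3 genes at an unadjusted p under 0.05 in limma (22.7% of all probe sets) and 3 called by SAM (12.1%). Hypoxia against normoxia gave 2 calls in double mutants (4.72%), 0 in *dERR* mutants (0.389%), 1 in *sima* mutants (3.60%) and 1 in *w1118* (5.15%). For *dERR* mutants the 0 stands beside 0 genes at an unadjusted p under 0.05 in limma (14.6% of all probe sets) and 0 called by SAM (0.0693%). Read by whether the arrays of the groups overlap, mutants lay apart from *w1118* in hypoxia for 5 genes in double mutants (16.1% of all probe sets), 6 in *dERR* mutants (17.2%) and 5 in *sima* mutants (14.6%), and in normoxia for 7 in double mutants (38.9%), 6 in *dERR* mutants (40.9%) and 4 in *sima* mutants (39.9%). Hypoxic and normoxic arrays lay apart for 4 genes in double mutants (25.1%), 1 in *dERR* mutants (14.1%), 6 in *sima* mutants (26.8%) and 3 in *w1118* (20.6%). The peptide genes other than the Drosomycin family, with *PGRP-SB1*, made up most of the higher calls in mutants. *Drs* and *Drsl2* made up the lower calls in double and *dERR* mutants, and *Drsl3* the 1 lower call in *sima* mutants, in hypoxia. Since all 3 mutants were set against the same *w1118* arrays, a *w1118* value that lies high or low moves all 3 comparisons. Because the genes were chosen with earlier results known, the shares over all probe sets are given for scale only. They do not test whether such genes changed more often than others.

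Most of these genes varied widely between replicates. The SD within groups was above that of 79.3% of all probe sets for *CecB*, 98.1% for *PGRP-SB1*, 99.1% for *DptB*, 99.4% for *Mtk* and 99.5% for *Drsl2*. *Mtk* had 45.0% of its variance between the 8 groups and *Drsl5* 55.7%, against 68.4% to 85.1% for the other 8 genes and a median of 48.4% over all probe sets. The limma p values set each difference against a variance estimated from the replicates of all 8 groups, and the number of arrays limits the precision.

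**Figure D1:**
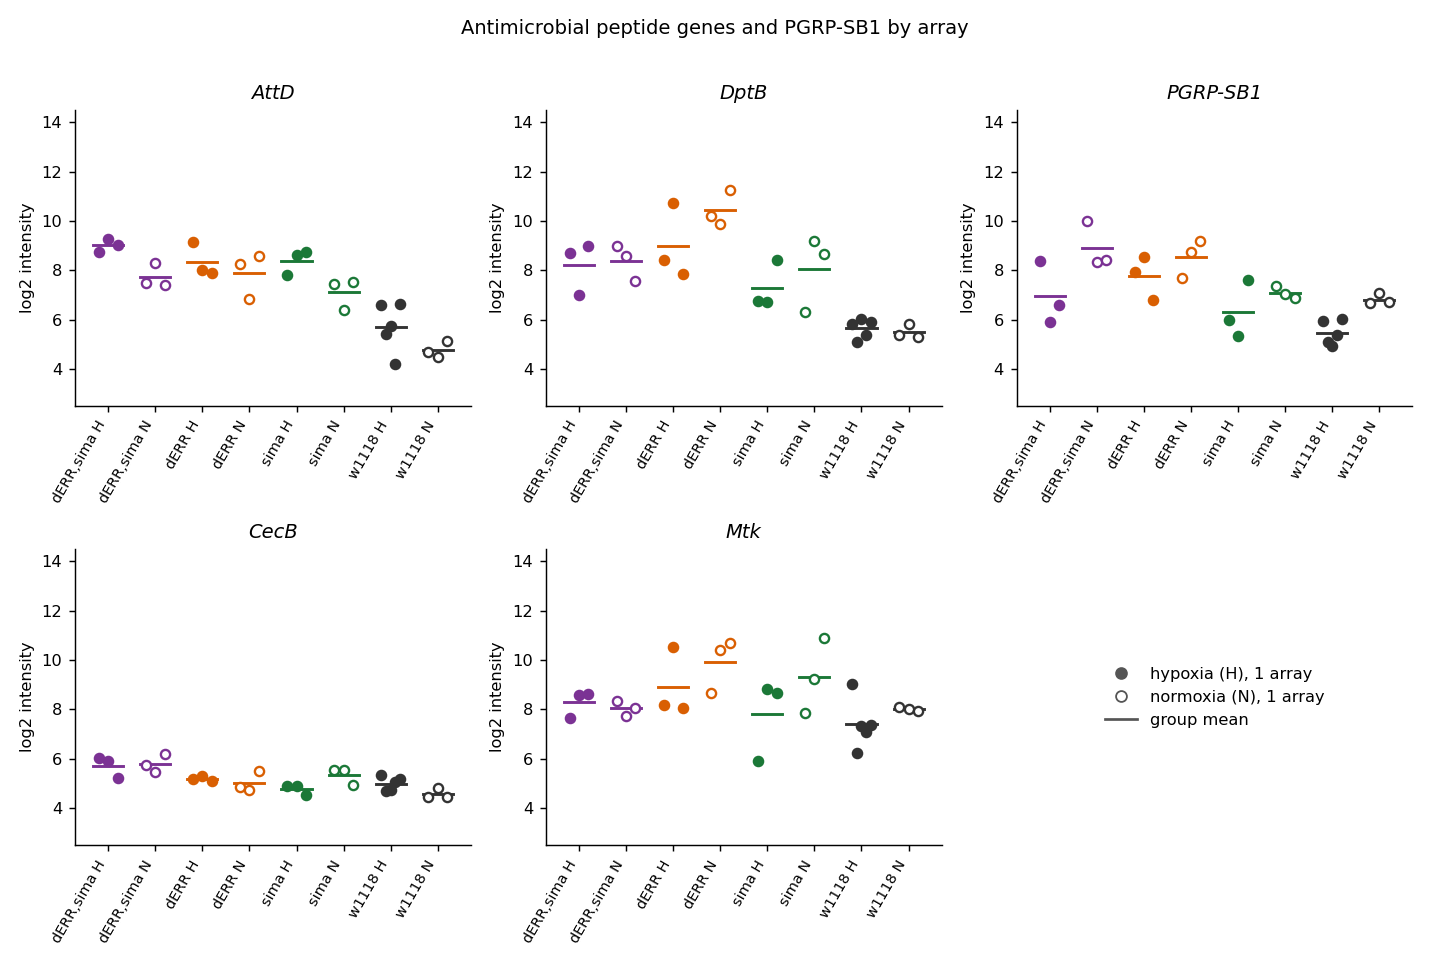
Log2 intensity of *AttD*, *DptB*, *CecB*, *Mtk* and *PGRP-SB1* on each of the 26 arrays, by genotype and oxygen level (filled points hypoxia, open points normoxia, bars group means). All *AttD* points of the mutants but 1 lie above every *w1118* point, whose highest is 6.64, and *DptB* reaches 11.27 in *dERR* mutants in normoxia.

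*AttD* encodes an attacin, a peptide family active against Gram-negative bacteria. Its log2 intensities in hypoxia were 8.75, 9.27 and 9.04 in double mutants, 9.16, 7.99 and 7.89 in *dERR* mutants and 7.81, 8.61 and 8.72 in *sima* mutants, against 6.6, 5.4, 5.72, 4.19 and 6.64 in *w1118*. In normoxia they were 7.47, 8.28 and 7.4 in double mutants, 8.27, 6.82 and 8.58 in *dERR* mutants and 7.44, 6.40 and 7.51 in *sima* mutants, against 4.67, 4.50 and 5.12 in *w1118*. At either oxygen level every mutant array lay above every *w1118* array of that level. Relative to *w1118* in hypoxia, *AttD* was higher by 3.31 in double mutants (SE 0.48, 9.93-fold, adjusted p = 8.06e-05), by 2.64 in *dERR* mutants (SE 0.48, 6.22-fold, adjusted p = 8.95e-04) and by 2.67 in *sima* mutants (SE 0.48, 6.37-fold, adjusted p = 7.81e-04). Relative to *w1118* in normoxia, it was higher by 2.95 in double mutants (SE 0.54, 7.73-fold, adjusted p = 0.00354) and by 3.12 in *dERR* mutants (SE 0.54, 8.72-fold, adjusted p = 0.00135). Its difference of 2.35 in *sima* mutants in normoxia (SE 0.54) missed the threshold with an adjusted p of 0.0152. That difference in *sima* mutants was called with the arrays centred (2.5, adjusted p = 0.00469), by SAM (q = 6.69e-04), when only these groups were fitted (adjusted p = 0.00178), with the replicate block (adjusted p = 0.00405), with the close *w1118* hypoxia replicates averaged (adjusted p = 0.00434) and without *w1118* hypoxia replicates 4 and 5 (adjusted p = 0.00353). The calls in hypoxia held without any single array of the groups compared and were lost when only the groups compared were fitted (adjusted p = 0.0126 in double mutants, 0.032 in *dERR* mutants and 0.0317 in *sima* mutants). In normoxia the call for double mutants was lost without any 1 of the 6 arrays compared, at 2.67 to 3.13 with adjusted p of 0.0113 to 0.0253, and that for *dERR* mutants without *w1118* replicate 2, at 2.99 (adjusted p = 0.011).

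*DptB* encodes a diptericin-like peptide and is a standard readout of the Imd pathway. Log2 intensities in hypoxia were 8.71, 6.98 and 8.99 in double mutants, 8.40, 10.74 and 7.86 in *dERR* mutants and 6.75, 6.71 and 8.42 in *sima* mutants, against 5.80, 5.09, 6.03, 5.37 and 5.90 in *w1118*. In normoxia the arrays read 8.99, 8.57 and 7.55 in double mutants, 10.21, 9.89 and 11.27 in *dERR* mutants and 6.31, 9.20 and 8.66 in *sima* mutants, against 5.38, 5.80 and 5.30 in *w1118*. The 8 *w1118* arrays stayed between 5.09 and 6.03, below all mutant arrays, which spread from 6.31 to 11.27. The largest difference was that of *dERR* mutants in normoxia, where *DptB* was 4.96 higher than in *w1118* (SE 0.73, 31.2-fold, adjusted p = 3.73e-04), and leaving out any single array kept this call. In hypoxia *DptB* was higher by 2.59 in double mutants (SE 0.66, 6.02-fold, adjusted p = 0.0097) and by 3.36 in *dERR* mutants (SE 0.66, 10.3-fold, adjusted p = 0.00153), and the difference in *sima* mutants was 1.65 (adjusted p = 0.116). In normoxia the differences of 2.88 in double mutants (adjusted p = 0.04) and 2.57 in *sima* mutants (adjusted p = 0.0535) did not pass. The call for *dERR* mutants in hypoxia was lost without *dERR* replicate 2 (2.49, adjusted p = 0.0189). The call for double mutants in hypoxia was lost without any 1 of the 5 *w1118* arrays (2.45 to 2.69, adjusted p from 0.011 to 0.0241) and without double mutant replicate 1 (2.35, adjusted p = 0.067) or 3 (2.21, adjusted p = 0.0695).

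*PGRP-SB1* encodes a secreted peptidoglycan recognition protein that cuts peptidoglycan. In hypoxia its log2 intensities were 8.37, 5.91 and 6.59 in double mutants, 7.94, 8.55 and 6.78 in *dERR* mutants and 5.96, 5.33 and 7.62 in *sima* mutants, against 5.92, 5.08, 4.93, 5.37 and 6.02 in *w1118*. Normoxic arrays gave 10.01, 8.32 and 8.43 in double mutants, 7.68, 8.72 and 9.19 in *dERR* mutants and 7.36, 7.04 and 6.86 in *sima* mutants, against 6.65, 7.06 and 6.72 in *w1118*. In normoxia, double and *dERR* mutants lay above all *w1118* arrays, while *sima* mutants overlapped with them. Its 1 call was in *dERR* mutants in hypoxia, 2.30 higher than *w1118* (SE 0.55, 4.91-fold, adjusted p = 0.00672). That call was lost without *w1118* replicate 2 (2.20, adjusted p = 0.0173), 3 (2.16, adjusted p = 0.0185) or 4 (2.27, adjusted p = 0.0138), or *dERR* replicate 1 (2.20, adjusted p = 0.0224) or 2 (1.90, adjusted p = 0.0541). The other differences in hypoxia were 1.49 in double mutants (adjusted p = 0.075) and 0.84 in *sima* mutants (adjusted p = 0.409), and in normoxia 2.11 in double mutants (adjusted p = 0.0729), 1.72 in *dERR* mutants (adjusted p = 0.0835) and 0.28 in *sima* mutants (adjusted p = 0.836).

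*CecB* encodes a cecropin, a helical peptide that damages bacterial membranes. Its log2 intensities lay between 4.43 and 6.21 on all arrays, at 6.02, 5.89 and 5.23 in double mutants, 5.2, 5.31 and 5.09 in *dERR* mutants and 4.91, 4.91 and 4.55 in *sima* mutants, against 5.35, 4.70, 4.72, 5.04 and 5.17 in *w1118* in hypoxia. In normoxia they were 5.75, 5.45 and 6.21 in double mutants, 4.85, 4.75 and 5.49 in *dERR* mutants and 5.55, 5.53 and 4.95 in *sima* mutants, against 4.43, 4.81 and 4.47 in *w1118*. Only double mutants in normoxia passed, with every array above *w1118* and a difference of 1.23 (SE 0.24, 2.35-fold, adjusted p = 0.00658). This call was lost without *w1118* replicate 1 (1.16, adjusted p = 0.0361), 2 (1.35, adjusted p = 0.0131) or 3 (1.18, adjusted p = 0.0395), or double mutant replicate 1 (1.25, adjusted p = 0.0231) or 3 (1.03, adjusted p = 0.0561).

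*Mtk* encodes metchnikowin, a proline-rich peptide active against fungi and Gram-positive bacteria. Hypoxic arrays read 7.67, 8.57 and 8.63 in double mutants, 8.20, 10.52 and 8.04 in *dERR* mutants and 5.93, 8.82 and 8.68 in *sima* mutants, against 9.03, 6.22, 7.32, 7.08 and 7.38 in *w1118*. In normoxia the log2 intensities were 8.35, 7.73 and 8.07 in double mutants, 8.68, 10.42 and 10.69 in *dERR* mutants and 7.87, 9.23 and 10.90 in *sima* mutants, against 8.12, 8.03 and 7.94 in *w1118*. *Mtk* passed in none of the 10 comparisons between groups, and its widest difference was 1.90 for *dERR* mutants in normoxia, with a 95% confidence interval of 0.18 to 3.62 (adjusted p = 0.145). With all groups centred on their means, *Mtk* and *DptB* varied together over the 26 arrays (r = 0.55), as did *DptB* and *PGRP-SB1* (r = 0.54). These points share the array and its pool of larvae.

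The differences of these 5 genes from *w1118* had medians in hypoxia of 1.49 in double mutants, 2.30 in *dERR* mutants and 0.84 in *sima* mutants, and in normoxia of 2.11 in double mutants, 1.9 in *dERR* mutants and 1.3 in *sima* mutants, while the medians over all probe sets lay between -0.01 and 0.07. Markers of the midgut, a tissue that makes such peptides, were also higher in some mutants. Of 7 midgut markers measured, 0 were called in double mutants, 3 in *dERR* mutants in hypoxia (*betaTry*, *Jon25Bi* and *Npc2f*), 2 in *dERR* mutants in normoxia (*LysP* and *Mal-A1*) and 1 in *sima* mutants at either oxygen level (*LysP*). *LysP* was dim, with a mean log2 of 4.04 over all arrays. Their summed intensity in hypoxia was 19014 to 25603 in double mutants, 28795 to 33644 in *dERR* mutants and 26466 to 30143 in *sima* mutants, against 17906 to 23776 in *w1118*. In normoxia it was 23488 to 30970 in double mutants, 26002 to 33894 in *dERR* mutants and 30535 to 32701 in *sima* mutants, against 20194 to 24496 in *w1118*. Thus the sums of *dERR* and *sima* mutants lay above those of *w1118*, and those of double mutants overlapped with *w1118*. Of 6 fat body markers, *FASN1*, a fatty acid synthase gene, was higher in *dERR* mutants by 1.39 in hypoxia and 2.49 in normoxia, and no other was called in a mutant. Of 12 hemocyte markers, 1, *lz*, was lower in all 3 mutants in hypoxia. It was dim (mean log2 3.85), and its largest change in any comparison was 0.71. The part of these markers in the peptide levels was not tested.

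**Figure D2:**
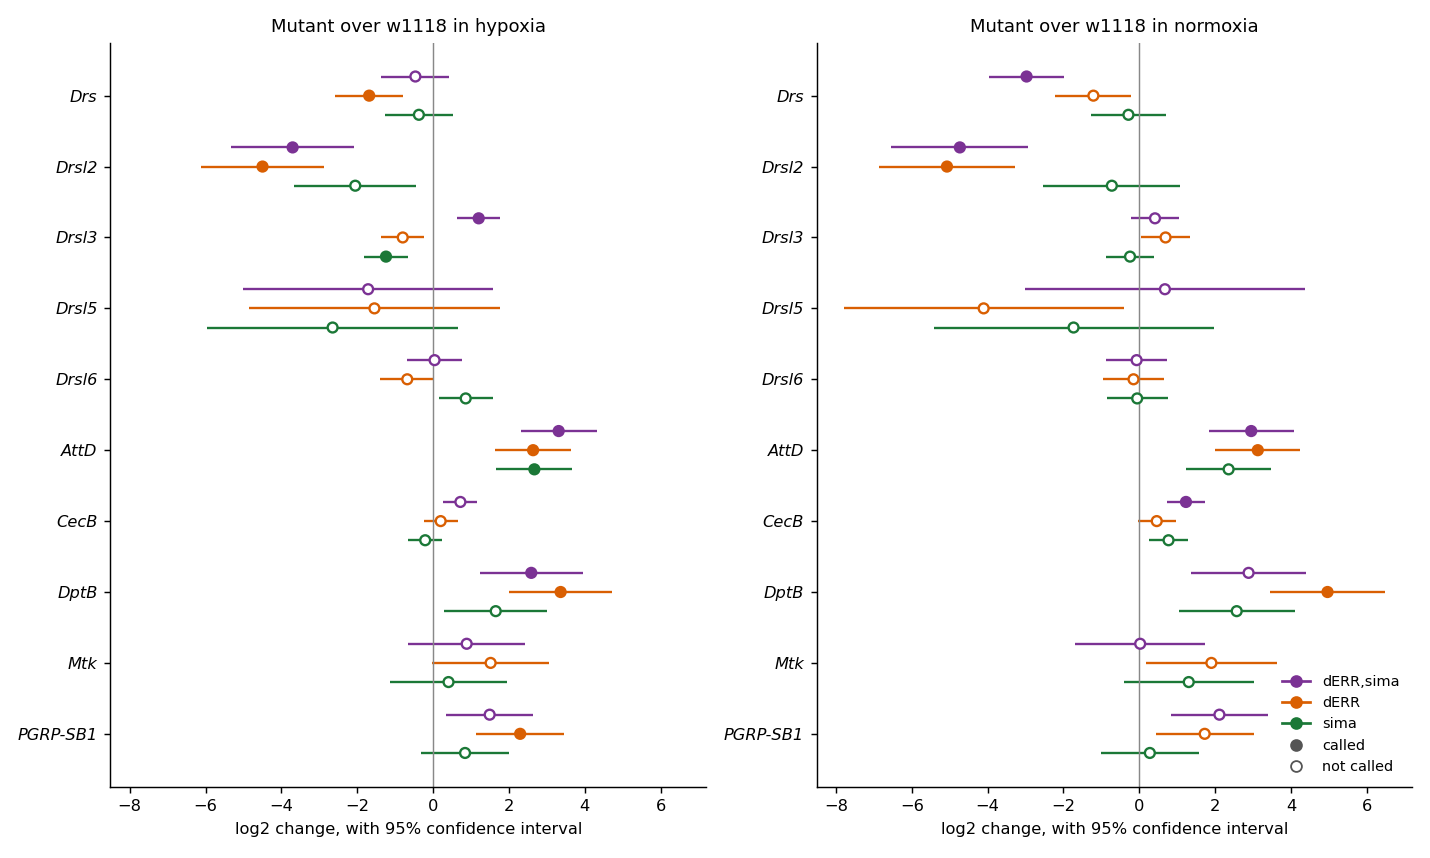
Log2 difference of each mutant from *w1118* for the 10 genes, in hypoxia and in normoxia, with 95% confidence intervals from limma (filled points were called). *AttD* and *DptB* lie above 0 in all 6 comparisons, and the intervals of *Drsl2* lie below 0 in all but that of *sima* mutants in normoxia.

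*Drs* encodes Drosomycin, a secreted antifungal peptide. In hypoxia its log2 intensities were 13.32, 13.23 and 13.06 in double mutants, 11.12, 12.51 and 12.33 in *dERR* mutants and 13.05, 13.45 and 13.38 in *sima* mutants, against 13.77, 13.53, 13.65, 13.67 and 13.73 in *w1118*. In normoxia they were 8.95, 9.72 and 10.50 in double mutants, 12.72, 10.58 and 11.16 in *dERR* mutants and 12.29, 12.21 and 12.73 in *sima* mutants, against 11.65, 13.60 and 12.83 in *w1118*. Double mutants in normoxia were below all other groups, and all mutant arrays in hypoxia were below the 5 *w1118* arrays. *Drs* fell in double mutants in normoxia by 2.97 (SE 0.48, 7.85-fold, adjusted p = 0.00111) and in *dERR* mutants in hypoxia by 1.69 (SE 0.43, 3.22-fold, adjusted p = 0.00952) relative to *w1118*. The call for double mutants was lost without *w1118* replicate 2 (-2.52, adjusted p = 0.0124) or double mutant replicate 1 (-2.59, adjusted p = 0.0113), and that for *dERR* mutants without any 1 of the 8 arrays compared (-1.95 to -1.25, adjusted p from 0.0123 to 0.0611). The remaining differences were -0.47 in double mutants and -0.37 in *sima* mutants in hypoxia, and -1.21 in *dERR* mutants and -0.29 in *sima* mutants in normoxia.

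Hypoxia raised *Drs* in double mutants by 3.48 (SE 0.48, 11.1-fold, adjusted p = 4.95e-05), and no other change between oxygen levels among the 10 genes was called with so small a p value. The call held without any single array and under every other setting tried, at 3.09 to 3.87. The changes in the other genotypes were 0.50 in *dERR* mutants (adjusted p = 0.715), 0.88 in *sima* mutants (adjusted p = 0.341) and 0.97 in *w1118* (adjusted p = 0.136). In normoxia *Drs* averaged at percentile 97.7 of all probe sets in *dERR* mutants, 98.9 in *sima* mutants and 99.1 in *w1118*, against 93.0 in double mutants. Whether the upper end of the array's range limited rises from such levels was not tested. The hypoxic change in double mutants exceeded that in *w1118* by 2.51 (SE 0.64, 95% confidence interval 1.17 to 3.85), which missed the threshold with an adjusted p of 0.0612. None of the 10 genes passed the test of this interaction in double mutants (0.480% of all probe sets), *dERR* mutants (0.107%) or *sima* mutants (0.314%) by limma. At an unadjusted p under 0.05 there were 1 gene in double mutants (13.9% of all probe sets), 1 in *dERR* mutants (9.17%) and 2 in *sima* mutants (14.6%). SAM was not run on interactions.

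Single tissue markers also changed with oxygen. The tracheal gene *Gasp* rose in hypoxia by 1.76 in double mutants, 1.5 in *sima* mutants and 1.39 in *w1118*, 1 of 7 tracheal markers in each case, and the hemocyte receptor gene *Sr-CI* rose by 1.35, 1.36 and 1.19 in the same genotypes, 1 of 12 hemocyte markers. Of 6 fat body markers, the perilipin gene *Lsd-1* fell in all 4 genotypes, by 1.23 in double mutants, 1.59 in *dERR* mutants, 1.58 in *sima* mutants and 1.44 in *w1118*. The summed intensity of the fat body markers in double mutants was 56694 to 67786 in hypoxia and 66671 to 68434 in normoxia, that of the tracheal markers 5177 to 6167 and 2889 to 3931, and that of the hemocyte markers 3773 to 5801 and 3172 to 4097. Such sums follow the brightest genes. In double mutants *Gasp* alone averaged 10.03 in normoxia and 11.80 in hypoxia. The median hypoxic change there was -0.01 for the fat body, 0.08 for the tracheal and 0.24 for the hemocyte markers. The part of these tissues in the hypoxic levels was not tested.

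**Figure D3:**
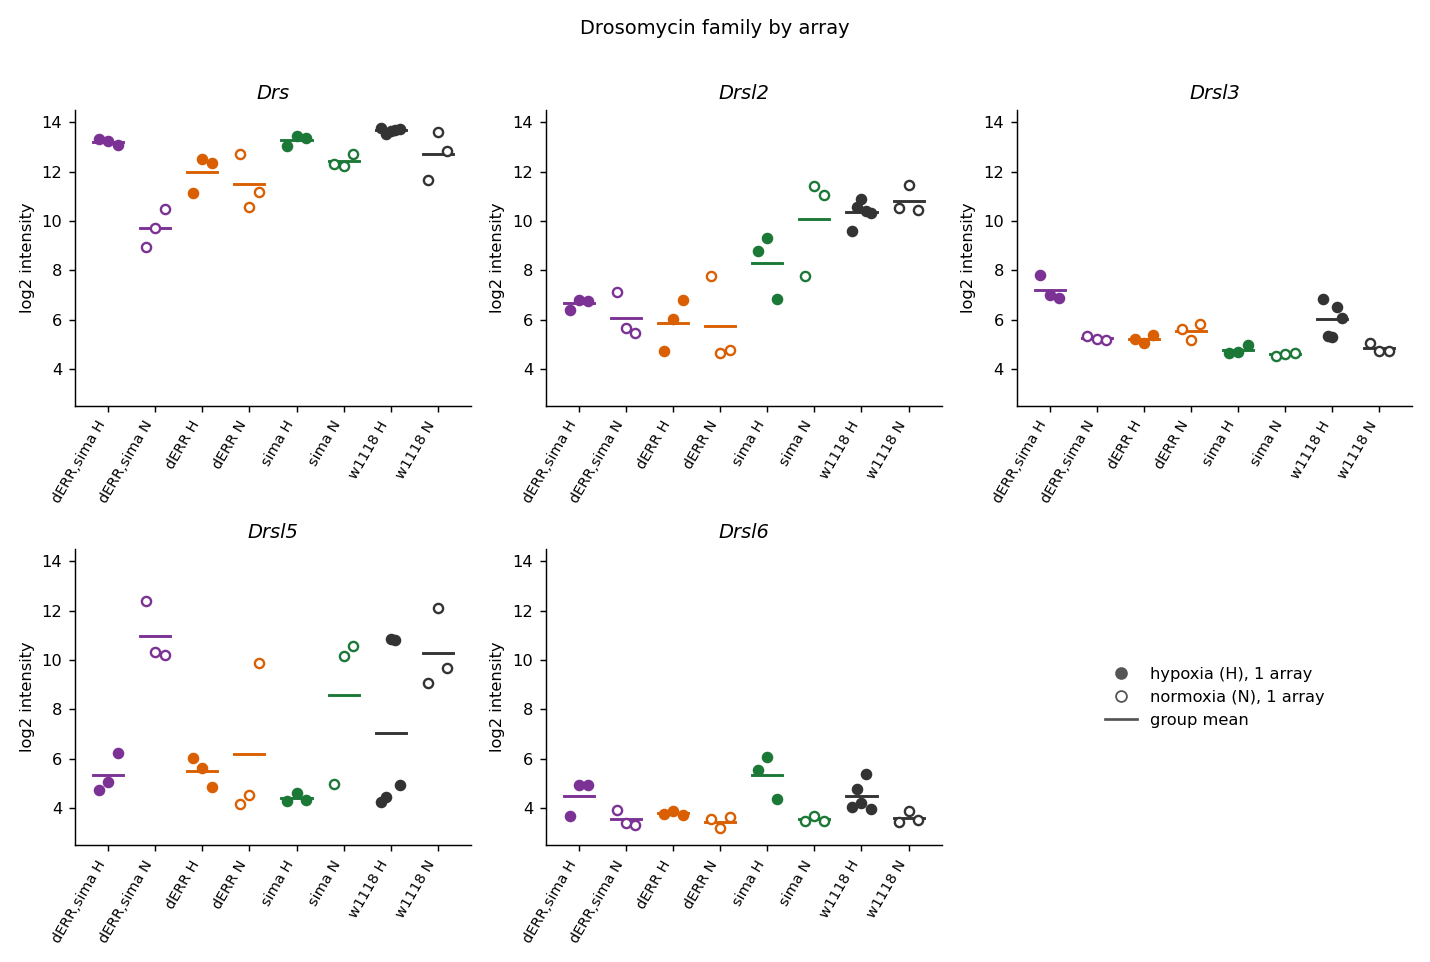
Log2 intensity of *Drs*, *Drsl2*, *Drsl3*, *Drsl5* and *Drsl6* on each array, by genotype and oxygen level (filled points hypoxia, open points normoxia, bars group means). *Drs* in double mutants lies at 8.95 to 10.50 in normoxia and at 13.06 to 13.32 in hypoxia, and *Drsl2* is lower in *dERR* and double mutants than in *w1118*.

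The *Drs* relatives lie with *Drs* on chromosome arm 3L in the order *Drsl2*, *Drsl3*, *Drsl4* and *Drsl5* without another coding gene between them, then 7 other coding genes, then *Drsl1* and *Drsl6*, 1 other coding gene and *Drs*. They did not move as a block. *Drsl2* was the member whose level in *dERR* and double mutants was farthest below *w1118*. Its log2 intensities in hypoxia were 6.39, 6.81 and 6.75 in double mutants, 4.73, 6.03 and 6.80 in *dERR* mutants and 8.78, 9.29 and 6.82 in *sima* mutants, against 9.58, 10.55, 10.89, 10.42 and 10.32 in *w1118*. In normoxia they were 7.10, 5.65 and 5.47 in double mutants, 7.78, 4.66 and 4.76 in *dERR* mutants and 7.78, 11.42 and 11.05 in *sima* mutants, against 10.53, 11.46 and 10.43 in *w1118*. All arrays of *dERR* and double mutants stayed at or below 7.78, and all *w1118* arrays at or above 9.58, with *sima* mutants between 6.82 and 11.42, in both ranges and between them.

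Relative to *w1118* in hypoxia, *Drsl2* was lower by 3.70 in double mutants (SE 0.78, 13-fold, adjusted p = 0.00244) and by 4.50 in *dERR* mutants (SE 0.78, 22.6-fold, adjusted p = 5.59e-04). Relative to *w1118* in normoxia, it was lower by 4.73 in double mutants (SE 0.87, 26.6-fold, adjusted p = 0.00356) and by 5.07 in *dERR* mutants (SE 0.87, 33.7-fold, adjusted p = 0.00125). In *sima* mutants the differences were -2.05 in hypoxia (adjusted p = 0.0955) and -0.73 in normoxia (adjusted p = 0.669). The call for *dERR* mutants in hypoxia held under every setting tried. In *dERR* mutants in normoxia it was lost without *w1118* replicate 2 (-4.75, adjusted p = 0.0115) or *dERR* replicate 2 (-4.54, adjusted p = 0.0143), by SAM, and when only these groups were fitted. In double mutants in hypoxia it was lost without double mutant replicate 1 (-3.58, adjusted p = 0.0188) or 3 (-3.75, adjusted p = 0.0117). There it was also lost with the replicate block, with the close *w1118* hypoxia replicates averaged and without *w1118* hypoxia replicates 4 and 5. In double mutants in normoxia it was lost without any 1 of the 3 *w1118* arrays or without double mutant replicate 2 or 3 (-4.92 to -4.41, adjusted p from 0.0126 to 0.0282). Oxygen alone moved *Drsl2* past the threshold in none of the 4 genotypes.

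*Drsl3* sits beside *Drsl2* and gave another pattern. In hypoxia its log2 intensities were 7.79, 6.99 and 6.86 in double mutants, 5.19, 5.06 and 5.38 in *dERR* mutants and 4.64, 4.70 and 4.97 in *sima* mutants, against 6.83, 5.33, 5.31, 6.51 and 6.08 in *w1118*. The normoxic arrays were at 5.32, 5.23 and 5.18 in double mutants, 5.60, 5.15 and 5.81 in *dERR* mutants and 4.51, 4.61 and 4.63 in *sima* mutants, against 5.04, 4.74 and 4.71 in *w1118*. The hypoxic arrays of double mutants lay above all others, and those of *w1118* above their normoxic arrays. Hypoxia raised *Drsl3* by 1.97 in double mutants (SE 0.31, 3.93-fold, adjusted p = 1.70e-04), which held without any single array and just missed the threshold when only these groups were fitted (adjusted p = 0.0105), and by 1.18 in *w1118* (SE 0.27, 2.27-fold, adjusted p = 0.00504), while the changes were -0.31 in *dERR* mutants (adjusted p = 0.727) and 0.19 in *sima* mutants (adjusted p = 0.819). Relative to *w1118* in hypoxia it was higher by 1.20 in double mutants (SE 0.27, adjusted p = 0.00458) and lower by 1.24 in *sima* mutants (SE 0.27, adjusted p = 0.00433), with a difference of -0.80 in *dERR* mutants (adjusted p = 0.0452).

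The tests of whether the hypoxic change of *Drsl3* differed from that in *w1118* gave 0.79 in double mutants (adjusted p = 0.381), -1.49 in *dERR* mutants (adjusted p = 0.134) and -1.0 in *sima* mutants (adjusted p = 0.318), none past the threshold. The hypoxic call in *w1118* was lost without any 1 of the 3 normoxic arrays (1.12 to 1.29, adjusted p from 0.0131 to 0.0314) and without hypoxic replicate 1 (0.98, adjusted p = 0.0105), 4 (1.06, adjusted p = 0.0136) or 5 (1.17, adjusted p = 0.011). The call for double mutants against *w1118* was lost without *w1118* replicate 2 or 3 (1.03 and 1.03, adjusted p = 0.0128 and 0.0129) or double mutant replicate 1 (0.92, adjusted p = 0.062). That for *sima* mutants was lost without *w1118* replicate 4 (-1.12, adjusted p = 0.0126) or without any 1 of the 3 *sima* arrays (-1.34 to -1.18, adjusted p from 0.0122 to 0.028).

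*Drsl6* was dim in normoxia in every genotype and reached its highest level in *sima* mutants in hypoxia. Its hypoxic log2 intensities were 3.66, 4.94 and 4.93 in double mutants, 3.75, 3.87 and 3.74 in *dERR* mutants, 5.56, 6.07 and 4.36 in *sima* mutants and 4.03, 4.77, 4.21, 5.37 and 3.98 in *w1118*. In normoxia they were 3.93, 3.39 and 3.30 in double mutants, 3.55, 3.18 and 3.64 in *dERR* mutants, 3.49, 3.68 and 3.49 in *sima* mutants and 3.45, 3.89 and 3.50 in *w1118*. Hypoxic and normoxic arrays did not overlap in *dERR* mutants, *sima* mutants or *w1118*, and they overlapped in double mutants. Hypoxia raised *Drsl6* in *sima* mutants by 1.78 (SE 0.39, 3.43-fold, adjusted p = 0.00492), and its other changes were 0.97 in double mutants (adjusted p = 0.133), 0.33 in *dERR* mutants (adjusted p = 0.774) and 0.86 in *w1118* (adjusted p = 0.106). The change in *sima* mutants was not shown to differ from that in *w1118* (difference 0.92, 95% confidence interval -0.16 to 1.99, adjusted p = 0.383). The call was lost without any 1 of the 3 normoxic *sima* arrays (1.75 to 1.84, adjusted p from 0.016 to 0.0217) or hypoxic replicate 1 (1.66, adjusted p = 0.0276) or 2 (1.41, adjusted p = 0.0365).

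**Figure D4:**
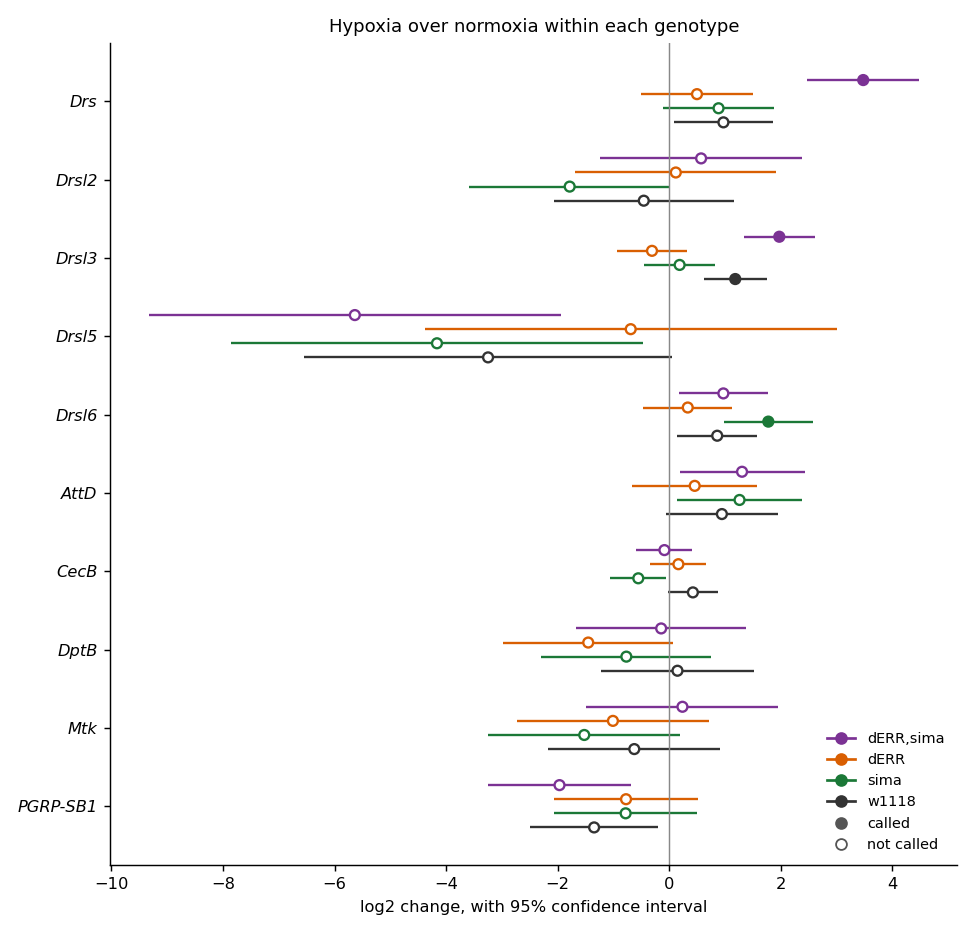
Log2 change (hypoxia minus normoxia) of the 10 genes in each genotype, with 95% confidence intervals from limma (filled points were called). The calls are *Drs* at 3.48 and *Drsl3* at 1.97 in double mutants, *Drsl6* at 1.78 in *sima* mutants and *Drsl3* at 1.18 in *w1118*.

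Among the peptide genes outside the Drosomycin family and *PGRP-SB1*, no change between hypoxia and normoxia was called by limma in any genotype. SAM called *AttD* higher in double mutants (q = 0.00762) and *PGRP-SB1* lower in *w1118* (q = 6.14e-04). Hypoxic arrays lay above all normoxic arrays for *AttD* in double and *sima* mutants. They lay below them for *CecB* in *sima* mutants and for *PGRP-SB1* in *w1118*. *AttD* changed by 1.31 in double mutants (adjusted p = 0.151), 0.46 in *dERR* mutants (adjusted p = 0.779), 1.26 in *sima* mutants (adjusted p = 0.185) and 0.94 in *w1118* (adjusted p = 0.188). *PGRP-SB1* had a negative change in each genotype, at -1.97 in double mutants (adjusted p = 0.048), -0.77 in *dERR* mutants (adjusted p = 0.635), -0.78 in *sima* mutants (adjusted p = 0.582) and -1.35 in *w1118* (adjusted p = 0.114). For *DptB* the 95% confidence interval of the hypoxic change was -1.67 to 1.38 in double mutants, -2.98 to 0.07 in *dERR* mutants, -2.29 to 0.76 in *sima* mutants and -1.22 to 1.51 in *w1118*, so a fall of 1 on the log2 scale lies within each of these intervals.

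*Drsl5* differed from the rest in that its arrays fell into separate ranges. In hypoxia the log2 intensities were 4.74, 5.06 and 6.23 in double mutants, 6.03, 5.63 and 4.87 in *dERR* mutants and 4.28, 4.63 and 4.31 in *sima* mutants, against 4.25, 4.45, 10.85, 10.81 and 4.93 in *w1118*. In normoxia they were 12.38, 10.34 and 10.22 in double mutants, 4.18, 4.53 and 9.89 in *dERR* mutants and 4.99, 10.16 and 10.57 in *sima* mutants, against 9.08, 12.13 and 9.70 in *w1118*. No array lay between 6.23 and 9.08. Of the hypoxic arrays, 0 of 3 double mutant, 0 of 3 *dERR*, 0 of 3 *sima* and 2 of 5 *w1118* arrays were in the upper range, against 3 of 3, 1 of 3, 2 of 3 and 3 of 3 of the normoxic arrays of the same genotypes.

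The hypoxic changes of *Drsl5* were imprecise, at -5.64 in double mutants (SE 1.77, 95% confidence interval -9.33 to -1.94, adjusted p = 0.048), -0.69 in *dERR* mutants (SE 1.77, adjusted p = 0.913), -4.16 in *sima* mutants (SE 1.77, adjusted p = 0.185) and -3.25 in *w1118* (SE 1.59, adjusted p = 0.172), and none was called in the full model. These errors come from 1 variance for all groups, whose SDs ran from 0.19 in *sima* mutants to 3.45 in *w1118*, both in hypoxia. In double mutants hypoxic and normoxic arrays lay apart. The fall there was called by SAM, when only these groups were fitted, and at an adjusted p under 0.05 with no minimum fold. The mutants did not differ from *w1118* past the threshold at either oxygen level. The range of its group means was wider than that of 99.9% of all probe sets.

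The larvae were staged shortly before pupariation, when pulses of the steroid ecdysone switch genes on and off, and the response genes of that hormone were therefore set beside *Drsl5*. Of 12 ecdysone response genes measured, hypoxia lowered 3 and raised 1 in double mutants and lowered 4 and raised 1 in *sima* mutants. The genes that fell in both were *br*, *E23* and *Hr39*, which respond early to ecdysone, and the gene that rose was *ftz-f1*, which is switched on after the hormone declines. In *dERR* mutants 0 were called, and in *w1118* 1 was raised, *ImpL1*. The summed intensity of the 12 in hypoxia was 1154 to 2215 in double mutants, 2427 to 2888 in *dERR* mutants, 1294 to 2194 in *sima* mutants and 2329 to 6586 in *w1118*. In normoxia it was 4484 to 9438 in double mutants, 2184 to 5094 in *dERR* mutants, 7012 to 7287 in *sima* mutants and 7308 to 7441 in *w1118*. The hypoxic sums were therefore below the normoxic sums, without overlap, in double mutants, *sima* mutants and *w1118*, but not in *dERR* mutants. Against *w1118* in hypoxia, 3 of the 12 were lower and 0 higher in double mutants (median difference -0.95), 0 were called in *dERR* mutants (median -0.63), and 4 were lower and 1 higher in *sima* mutants (median -1.15), so some of these genes also moved where *AttD* and *Drsl3* were called in double and *sima* mutants, and *DptB* and *Drsl2* in double mutants. In normoxia 0 were called in any mutant. The dim gene *Drsl6* also varied with some of these genes once all groups were centred on their means. Its r was then 0.73 with *ImpE2*, 0.70 with *br*, 0.37 with *Eip78C* and -0.48 with *ftz-f1*. Without centring, the same r were -0.13, -0.47, -0.25 and 0.46. The part of larval stage in the level of *Drsl5* or of the other 9 genes was not tested.

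**Figure D5:**
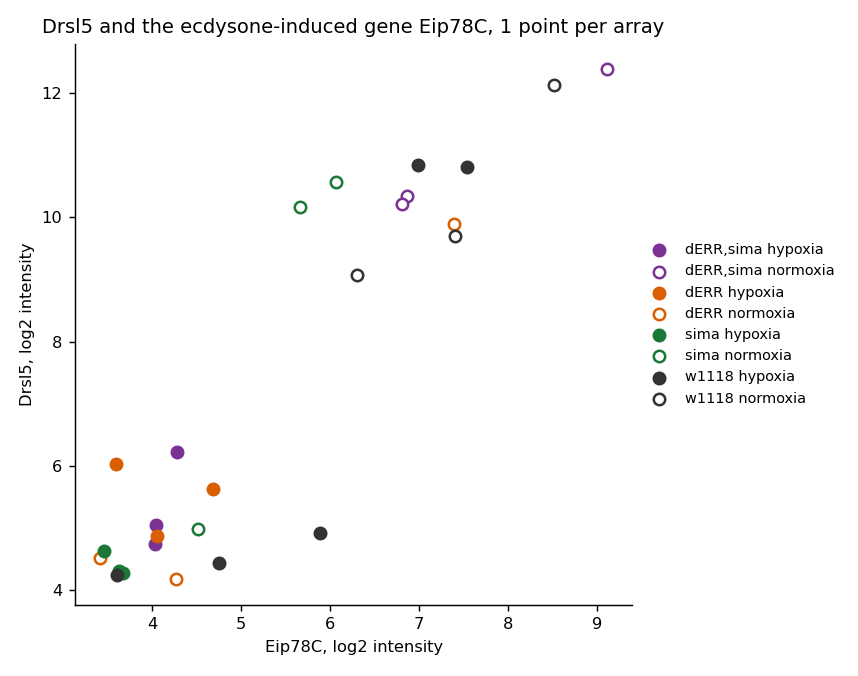
Log2 intensity of *Drsl5* against that of the ecdysone-induced nuclear receptor gene *Eip78C*, 1 point for each of the 26 arrays, coloured by genotype and filled for hypoxia. The 11 arrays with *Drsl5* at 9.08 or more and the 15 at 6.23 or less form separate clusters, within which r was 0.74 and 0.18, and *Eip78C* was picked as the one of 12 ecdysone response genes with the highest r in the 11 arrays, where the others ran from -0.55 to 0.64.

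Because the arrays formed these clusters, no pooled correlation is given, and likeness to *Drsl5* was read within them. The 5 genes nearest to it over all arrays, among 9092 with enough signal, were *lncRNA:CR33948*, *CG14664*, *CG9822*, *CG7924* and *CG14687*. Within the 11 arrays with high *Drsl5* their r with it was 0.83, 0.92, 0.69, 0.74 and 0.92, and within the 15 with low *Drsl5* it was 0.45, 0.21, 0.01, 0.47 and 0.24. These 5 genes were picked by r over the same arrays, so their r within the clusters follows in part from that choice. It therefore cannot be compared with the r of the ecdysone response genes. Over the 12 ecdysone response genes, r with *Drsl5* ran from -0.55 for *EcR* to 0.74 for *Eip78C* in the arrays with high *Drsl5*, where *br* had -0.06, *ftz-f1* -0.08 and *E23* 0.22. In the arrays with low *Drsl5* it ran from -0.35 for *ftz-f1* to 0.31 for *ImpE1*. *Eip78C* was called in none of the comparisons. These points share the array and its pool of staged larvae.

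For *Drs*, the most alike genes over the 26 arrays were *CG16713* (r = 0.89, and 0.93 over the 8 group means), *Bbd* (0.88 and 0.93), *CG34136* (0.87 and 0.95), *NitFhit* (0.85 and 0.89) and *Rm62* (0.81 and 0.87). *Bbd* encodes Bombardier, which is needed for the Toll-induced Bomanin peptides, and *Rm62* encodes a DEAD-box RNA helicase. The arrays of a group share its genotype and oxygen level, so the r over arrays is not one of 26 independent conditions.

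Of 14 other antimicrobial peptide genes listed, 5 were measured, namely *Drsl1*, *Drsl4*, *Def*, *Anp* and *Listericin*. Of these, *Drsl1*, the neighbour of *Drsl6*, was the only one called in any comparison. It stood at 9.51, 9.30 and 7.41 in *sima* mutants in hypoxia and at 5.60, 5.63 and 5.71 in *sima* mutants in normoxia, a change of 3.09 (SE 0.59, adjusted p = 0.00183). The groups did not overlap, and the call was lost without hypoxic replicate 1 (2.71, adjusted p = 0.016) or 2 (2.82, adjusted p = 0.0124). Its changes in the other genotypes were 1.57 in double mutants (adjusted p = 0.111), 0.97 in *dERR* mutants (adjusted p = 0.492) and 1.84 in *w1118* (adjusted p = 0.0239), and hypoxic arrays also lay above all normoxic arrays in double mutants and *w1118*. The change in *sima* mutants was not shown to differ from that in *w1118* (difference 1.25, 95% confidence interval -0.41 to 2.91, adjusted p = 0.445).

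In the Imd pathway, 21 of 27 genes were measured, and those that changed included its transcription factor and an inhibitor. *Rel*, which encodes the NF-κB protein Relish, read 10.04, 10.06, 10.13, 9.74 and 10.09 in *w1118* in hypoxia, against 8.63, 8.85 and 8.64 in *w1118* in normoxia. *PGRP-LF*, which encodes a membrane protein that blocks the receptor of the pathway, read 7.14, 6.41, 6.86, 6.26 and 6.84 in *w1118* in hypoxia, against 4.43, 4.75 and 4.48 in *w1118* in normoxia. For both genes every hypoxic array lay above every normoxic array. Hypoxia raised 2 of the 21 in double mutants, 0 in *dERR* mutants, 2 in *sima* mutants and 3 in *w1118*, and lowered none of them. *Rel* rose by 0.91 in double mutants, 0.96 in *sima* mutants and 1.31 in *w1118* (adjusted p = 0.00391, 0.0031 and 2.59e-05). *PGRP-LF* rose by 1.24 in double mutants, 1.29 in *sima* mutants and 2.15 in *w1118* (adjusted p = 0.00371, 0.00328 and 3.17e-06). *Tab2*, an adaptor of the kinase Tak1, was the third gene raised in *w1118*, by 0.95 (adjusted p = 6.09e-07). The calls in *w1118* held without any single array.

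In the mutants the hypoxic calls of *Rel* and *PGRP-LF* did not hold without each array. That of *Rel* was lost without normoxic replicate 2 or 3 or hypoxic replicate 1 or 2 in double mutants (0.78 to 0.91, adjusted p from 0.0171 to 0.0225) and without normoxic replicate 1 or 3 or hypoxic replicate 1 or 2 in *sima* mutants (0.86 to 0.95, adjusted p from 0.012 to 0.0221). That of *PGRP-LF* was lost without normoxic replicate 2 or 3 or hypoxic replicate 1 or 2 in double mutants (1.08 to 1.16, adjusted p from 0.0186 to 0.0288) and without normoxic replicate 3 or hypoxic replicate 1 or 3 in *sima* mutants (1.13 to 1.26, adjusted p from 0.0179 to 0.0258).

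Relative to *w1118* in normoxia, *PGRP-LF* was higher by 1.3 in *dERR* mutants and 1.77 in *sima* mutants (adjusted p = 0.005 and 4.35e-04), and *PGRP-LB*, which encodes an amidase that degrades the peptidoglycan sensed by the pathway, by 0.85 and 1.08 (adjusted p = 0.00382 and 4.75e-04). Both proteins restrain the pathway. In *sima* mutants both calls held without any single array. In *dERR* mutants that of *PGRP-LF* was lost without any 1 of the 6 arrays (1.18 to 1.42, adjusted p from 0.0126 to 0.0249), and that of *PGRP-LB* without *w1118* replicate 2 (0.72, adjusted p = 0.0349) or 3 (0.87, adjusted p = 0.0143) or *dERR* replicate 3 (0.73, adjusted p = 0.0185). Among the Imd genes in hypoxia, 1 was called in a mutant, *ben*, which encodes a ubiquitin-conjugating enzyme and was lower in double mutants (-0.67, adjusted p = 0.00171, lost without double mutant replicate 1 at -0.53 or 3 at -0.66).

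In the Toll pathway, 13 of 18 genes were measured. Hypoxia raised 2 of them in double mutants and 0 in *dERR* mutants, and raised 1 and lowered 1 in *sima* mutants and in *w1118*. *dl*, which encodes the NF-κB protein Dorsal, stood at 8.04, 8.36, 8.62, 8.49 and 8.26 in *w1118* in hypoxia, against 7.06, 7.06 and 7.02 in *w1118* in normoxia, with no overlap. It rose in hypoxia by 0.81 in double mutants, 0.62 in *sima* mutants and 1.31 in *w1118* (adjusted p = 2.63e-04, 0.00388 and 1.64e-07). The call in *sima* mutants was lost without normoxic replicate 1 or 2 or hypoxic replicate 1 or 3 (0.54 to 0.65, adjusted p from 0.0124 to 0.0289). *GNBP3*, which encodes a sensor of fungal cell wall, fell in hypoxia by 0.70 in *sima* mutants (adjusted p = 0.00803) and by 0.63 in *w1118* (adjusted p = 0.00514). Its call was lost without any 1 of the 6 *sima* arrays (-0.80 to -0.59), and in *w1118* without any 1 of the 3 normoxic arrays or hypoxic replicate 2 or 3 (-0.68 to -0.55). *psh*, which encodes a serine protease upstream of Toll, was higher in double mutants in hypoxia, both than in normoxia (1.07, adjusted p = 0.00481) and than in *w1118* (0.89, adjusted p = 0.00647). The first call was lost without any 1 of the 3 normoxic arrays or hypoxic replicate 1 or 2 (0.98 to 1.12), and the second without *w1118* replicate 2 or 3 or any 1 of the 3 double mutant arrays (0.73 to 0.96). *grass*, which encodes another protease of the cascade, was higher in double mutants in normoxia (0.94, adjusted p = 0.00219, lost without any 1 of the 3 *w1118* arrays or double mutant replicate 1 or 3, at 0.88 to 0.96) and lower in *sima* mutants in hypoxia (-0.74, adjusted p = 0.00178, lost without *sima* replicate 2 at -0.72 or 3 at -0.64) than in *w1118*.

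*SPE* encodes the protease that cuts Spätzle into the active Toll ligand. In hypoxia it read 9.11, 7.52 and 8.34 in double mutants and 9.19, 8.93 and 8.34 in *dERR* mutants, against 8.04, 5.53, 4.89, 5.89 and 5.51 in *w1118*. The *w1118* group held 1 array near the mutants, and *dERR* mutants lay above all 5. *SPE* was higher by 2.35 in double mutants (SE 0.56, adjusted p = 0.00642) and by 2.85 in *dERR* mutants (SE 0.56, adjusted p = 0.00164), and *spz*, which encodes Spätzle, was lower by 1.46 in *sima* mutants (adjusted p = 2.68e-04). The *SPE* call was lost without *dERR* replicate 2 (2.79, adjusted p = 0.0105), and in double mutants without any 1 of *w1118* replicates 2 to 5 or double mutant replicates 1 and 3 (1.96 to 2.34, adjusted p from 0.0133 to 0.0656). In the same animals *Drs* was lower in *dERR* mutants by 1.69, as given above.

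Of the 10 genes measured among 18 of the JAK-STAT pathway and the Turandot stress peptides, *Tep4*, which encodes a thioester-containing protein, rose in hypoxia by 1.14 in double mutants and 1.06 in *w1118*, and was higher in *dERR* mutants than in *w1118* by 1.02 in hypoxia and 1.34 in normoxia. The hypoxic call in double mutants was lost without any 1 of the 6 arrays (0.96 to 1.25), and that in *w1118* without any 1 of the 3 normoxic arrays or hypoxic replicate 1 or 4 (0.89 to 1.07). The call for *dERR* mutants was lost in hypoxia without *w1118* replicate 2, 3 or 5 or any 1 of the 3 *dERR* arrays (0.88 to 1.14), and in normoxia without any 1 of the 3 *w1118* arrays or *dERR* replicate 2 (0.98 to 1.35). The ligand gene *upd1* was lower in *dERR* mutants in hypoxia by 0.59 (adjusted p = 0.00287), a call lost without *w1118* replicate 3 (-0.51), which takes it under 1.5-fold, or *dERR* replicate 2 (-0.56, adjusted p = 0.0174) or 3 (-0.62, adjusted p = 0.0119). None of the Turandot genes measured, *TotB*, *TotC*, *TotF* and *TotZ*, was called.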

How the data were processed

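Values are deposited intensities on a linear scale, made by the authors with RMA from Affymetrix Drosophila Genome 2.0 arrays (version and joint normalization: not given in the sources used here). Groups come from the sample labels. Of 18952 probe sets, 183 controls were left out, and the log2 of each value was taken with a pseudocount of 0. A single limma 3.58.1 fit (R 4.3.3) of the 8 groups, with 18 residual degrees of freedom, gave the changes, errors and p values of 13 comparisons, adjusted over all 18769 probe sets. A result was called at an adjusted p under 0.01 and 1.5-fold or more. The methods' test, SAM, was run as an alternative with a q under 1%, and its version here was revised after it recovered no changes in simulated data. Other alternatives were centring, a filter on dim probe sets (mean log2 under 5), limma with trend and robust variance, a fit of only the groups compared, a replicate block, the close *w1118* replicates averaged or replicates 4 and 5 left out, another threshold and each array left out. Genes are represented by the probe set with the highest mean. All 10 genes are described, and from each pathway list at most 6 genes, those called in most comparisons. Gene names come from the platform annotation, and chromosome order from RefSeq. The genes and lists were chosen with earlier results of these data known. The models were tested on simulated data.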

Additional observations from a re-analysis of the deposited data

Results flagged for a closer look

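In *w1118* in hypoxia, the only group of more than 3 arrays, 24 genes were examined for an array far from the others (the 10 genes of the report and the 14 named from the pathway lists), and 2 had one. *Rel* was at 9.74 in replicate 4, against 10.04 to 10.13 in the other 4 arrays. *upd1* was at 4.15 in replicate 3, against 3.70 to 3.83 in the other 4, and without that array its difference in *dERR* mutants, -0.51 (adjusted p = 0.00857), was under 1.5-fold and no longer called. Chance gives such an array in about 1 in 20 groups, so about 1 of 24 genes would be found by chance.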

How the results depend on the processing

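Over 1323 alternative values of 82 gene changes, 1051 kept their direction and call, 250 lost the call, 22 gained it and 0 changed direction. Unless another setting is named, the losses given for single genes are those on leaving out 1 array. Some of these calls were also lost under other settings. The numbers of the 10 genes called were, hypoxia against normoxia, 2 in double mutants, 0 in *dERR*, 1 in *sima* and 1 in *w1118*, in normoxia against *w1118* 4 in double mutants, 3 in *dERR* and 0 in *sima*, and in hypoxia 4, 5 and 2. Centring the arrays gave 1 in *sima* in normoxia and 2 in double mutants and 1 in *sima* in hypoxia. SAM gave, for hypoxia against normoxia, 4 in double mutants, 2 in *sima* and 2 in *w1118*, and in normoxia 1 in *dERR* and 3 in *sima*. With probe sets of mean log2 under 5 left out, hypoxia gave 0 in *sima*. Fitting only the groups compared gave 0 in *sima* and 0 in *w1118* for hypoxia, 2 in double mutants, 1 in *dERR* and 1 in *sima* in normoxia, and 1, 1 and 0 in hypoxia. Of 84 same-number pairs of arrays in different groups, 30 correlated above 0.1, and their r ran from -0.53 to 0.70. Their median of 0.007 was near the 0.011 of pairs with different numbers, which shows no general pairing. Pairing between some groups is not excluded by this. With the replicate block the counts were 0 for hypoxia in *w1118*, 1 in *sima* in normoxia, and 2 in double mutants, 3 in *dERR* and 1 in *sima* in hypoxia. Averaging the close *w1118* hypoxia replicates gave 1 in *sima* in normoxia, and 1 in double mutants and 3 in *dERR* in hypoxia. Leaving out *w1118* hypoxia replicates 4 and 5 gave 0 for hypoxia in *w1118*, 1 in *sima* in normoxia, and 2 in double mutants, 3 in *dERR* and 1 in *sima* in hypoxia. The single gene in *sima* in normoxia was *AttD* in each of these settings. An adjusted p under 0.05 with no minimum fold gave 4 for hypoxia in double mutants and 1 in *sima* in normoxia. Counts within 1.5 times of the full model are not listed, among them 6 in double mutants in normoxia and 3 in double mutants and 3 in *sima* in hypoxia by SAM, and 3 in double mutants and 4 in *dERR* in hypoxia with trend and robust variance. Leaving out 1 array gave, for hypoxia, 2 to 2 in double mutants, 0 to 0 in *dERR*, 0 to 1 in *sima* and 0 to 1 in *w1118*, in normoxia 0 to 2, 1 to 3 and 0 to 0, in hypoxia 1 to 4, 2 to 4 and 1 to 2, and 0 to 0 for each interaction. Averages and fits with fewer arrays leave fewer residual degrees of freedom, and the cause of the other shifts was not tested. Over all probe sets, SAM called 2273 and fitting only the groups compared 1937 in *sima* mutants in normoxia, against 275 in the full model, while in *dERR* mutants in normoxia they called 97 and 68, against 429. *Drsl6* was dim (mean log2 under 5), as were *upd1* and the markers *LysP* and *lz*, so that small changes in them may go unseen.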
